A study of Mus musculus with 12 samples.

Results

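The 10 genes described here encode proteins that bring fatty acids into liver cells or bind them inside: the scavenger receptor Cd36, the fatty acid transport protein Slc27a2, the lipases Lpl and Lipc, the lipoprotein receptor Vldlr, the fatty acid binding proteins Fabp1, Fabp2, Fabp4 and Fabp5, and the acyl-CoA binding protein Dbi. They were taken by gene name from the deposited table, which held 22557 genes, and all 10 were found once and passed the filter on low values. Whole livers came from female mice, matched for age. The 4 groups of 3 mice were Mtdh KO with a Py8119 mammary tumour (KO_tumor), wild type with the tumour (WT_tumor), Mtdh KO without a tumour (KO_no_tumor) and wild type without a tumour (WT_no_tumor). Py8119 cells are mouse mammary carcinoma cells, and metadherin, the product of Mtdh, has been linked to growth and spread of tumours. The title of the series puts the question of host Mtdh, hepatic lipid metabolism and CD8+ T cells. The sources used here do not give strain, age, tumour size, the design of the knockout allele or the tissues that lost Mtdh, so KO stands for the labelled genotype only. Replicates came from different mice, so the tests set differences against the spread between mice, pooled over the 4 groups.

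Fatty acids reach hepatocytes either free, bound to albumin, or inside lipoproteins, whose triglycerides are cut by lipases at the vessel wall. At the cell surface Cd36 and transport proteins of the Slc27a family take up free fatty acids, and receptors such as Vldlr take up or hold lipoproteins. Inside the cell fatty acid binding proteins carry fatty acids, acyl-CoA synthetases activate them, and Dbi binds the acyl-CoA that results. Fabp1 is the abundant form of hepatocytes and a known target of the nuclear receptor Ppara, whereas Fabp4 is best known in adipocytes and macrophages, Fabp5 in skin and macrophages, and Fabp2 in enterocytes.

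Values are reads per gene after size-factor scaling by the authors, here called normalized reads, and fold changes are on the scale of log2(value + 1). KO_tumor replicate 1 had the lowest estimated depth, 12720000 reads, and the remaining libraries had 25720000 to 43020000. KO_tumor replicate 1 also had the fewest genes above 0 (14899) and the lowest mean correlation with the other libraries (0.831), and in KO_no_tumor replicate 3 snoRNAs took 4.84% of the summed value and snRNAs 5.32%, the highest shares of the 12. Mtdh had 1063, 380 and 323 in KO_tumor livers against 5290, 3954 and 5702 in WT_tumor livers, and 584, 436 and 627 in KO_no_tumor livers against 4330, 5375 and 4973 in WT_no_tumor livers. Its log2 fold change was -3.28 ± 0.35 (SE) with a tumour (limma, adjusted p = 0.00301) and -3.16 ± 0.35 without one (adjusted p = 0.0046). The call with a tumour was lost when the 6 libraries were fitted alone (adjusted p = 0.114). The call without a tumour was lost without KO_no_tumor replicate 2 (adjusted p = 0.0519) or WT_no_tumor replicate 2 (adjusted p = 0.0657). All 6 hepatocyte markers were above 0 in each group. Their summed value was 2591400 to 4239220 in KO_tumor, 3144290 to 3618090 in WT_tumor, 2359930 to 2829890 in KO_no_tumor and 2299340 to 2550880 in WT_no_tumor livers. Alb made up most of each sum. The sums of WT_tumor and WT_no_tumor livers did not overlap, with 4 of the 6 markers positive and 2 negative (median log2 fold change 0.18). In KO_tumor against WT_tumor livers 3 were positive and 3 negative (median -0.016), with none called in either comparison. Among the negative ones Cps1 had 66793, 62071 and 66668 in KO_tumor livers against 144027, 76607 and 89442 in WT_tumor livers. Of 17380 genes tested, the median log2 fold change of KO_tumor against WT_tumor was -0.12, and it was 0.0045 after quantile normalization, so small fold changes in that comparison depend on the scaling.

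In wild-type livers the tumour went with lower levels of Lipc and Vldlr, the 2 of the 10 genes that passed the test (adjusted p under 0.05 over all 17380 genes) against 0.679% of all genes tested (0.247% that were lower). Lipc averaged 1691 ± 460 in WT_tumor and 4116 ± 452 in WT_no_tumor livers, and Vldlr averaged 400 ± 214 in WT_tumor and 1353 ± 426 in WT_no_tumor livers (SD, n = 3 each). In tumour-bearing livers 4 of the 10 genes (Fabp1, Lipc, Vldlr and Dbi) were higher in all 3 KO_tumor libraries than in any WT_tumor library, against 8.11% of genes tested that were so separated in that direction and 17.9% in either direction, but none passed the test, where 0.023% of all genes did. Without a tumour no member was separated between KO_no_tumor and WT_no_tumor, against 7.93% of genes. The members below are given in the order of their roles, with values in replicate order 1, 2 and 3.

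**Figure D1:**
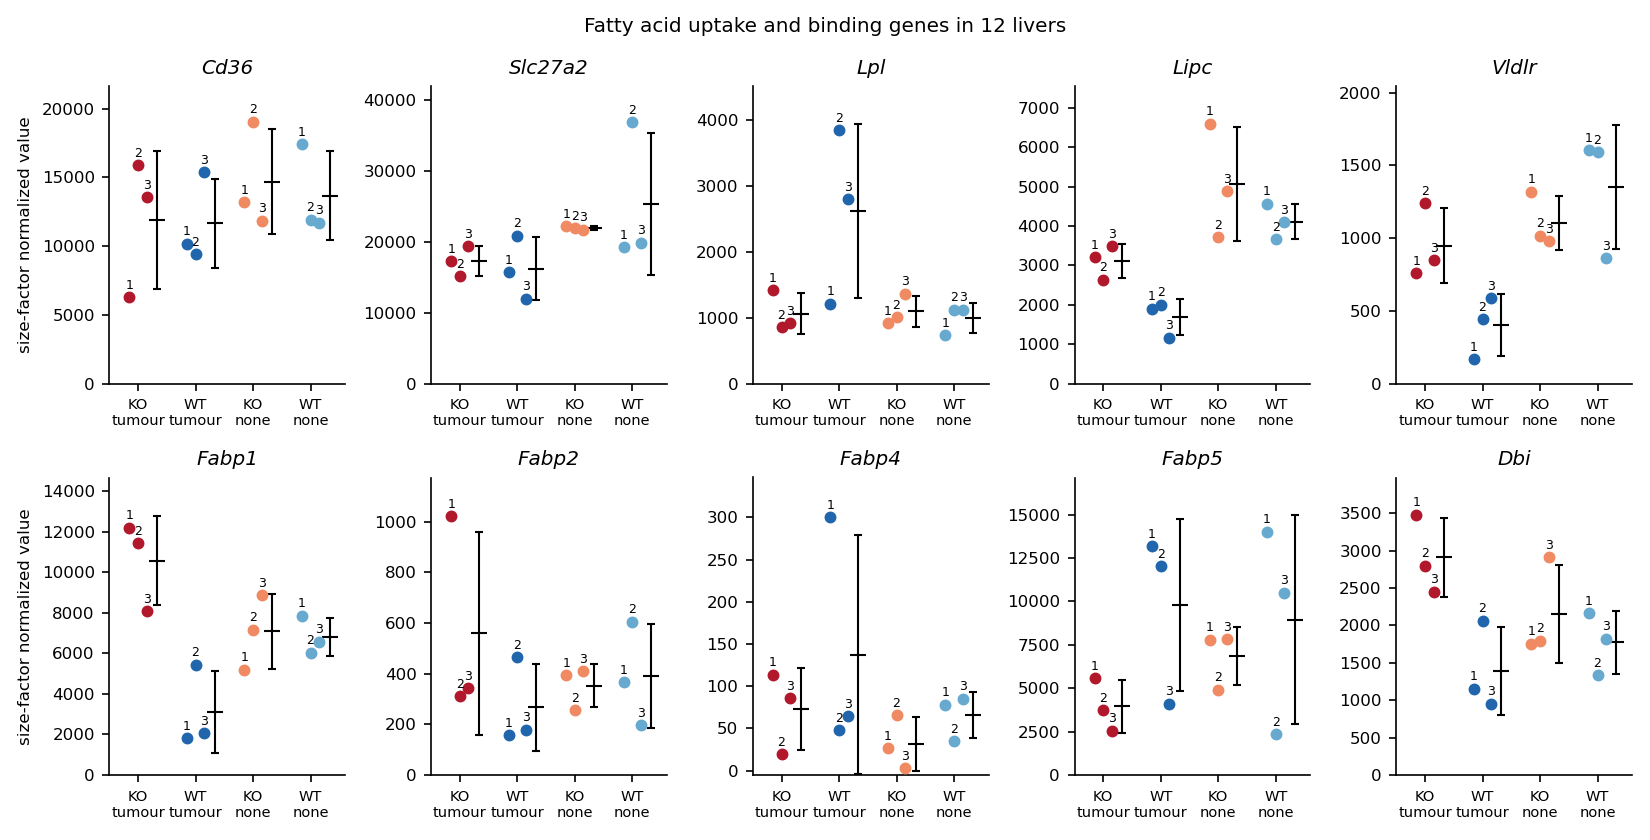
Size-factor normalized value (linear axis, a separate scale for each gene) of each of the 10 genes in each of 12 livers; points carry the replicate number, and the bar beside each group gives its mean and SD (n = 3). Lipc, Vldlr and Fabp1 sit lower in all 3 WT_tumor libraries than in any WT_no_tumor library, while Cd36 averages between 11650 and 14702 in the 4 groups.

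Lipc encodes hepatic lipase, which hepatocytes secrete and which cuts triglycerides and phospholipids of remnant and high-density lipoproteins. Lipc lies on chromosome 9 (70705410 to 70859508, minus strand, mm39). Its values were 3208, 2642 and 3494 in KO_tumor livers, 1905, 2004 and 1163 in WT_tumor livers, 6603, 3719 and 4893 in KO_no_tumor livers and 4573, 3669 and 4106 in WT_no_tumor livers. The 3 WT_tumor libraries held the lowest values of the 12, and the ranges of tumour-bearing and tumour-free livers did not overlap in either genotype. Lipc fell in WT_tumor against WT_no_tumor livers by 1.32 ± 0.25 on the log2 scale (SE; 95% interval -1.84 to -0.79; adjusted p = 0.0265), to 41.1% of the WT_no_tumor mean. In KO_tumor against KO_no_tumor livers its log2 fold change was -0.67 ± 0.25 (adjusted p = 0.349). Averaged over genotypes it fell by 0.996 ± 0.17 with a tumour (adjusted p = 0.0157), the only member of the 10 called there, against 1.06% of genes tested (0.449% that were lower). Among tumour-bearing livers it stood 0.91 ± 0.25 higher in KO (adjusted p = 0.166), and the difference between the tumour's effects in KO and in WT was 0.64 ± 0.35 (adjusted p = 0.859). Reads were not stated to be counted by strand, and the uncharacterized long noncoding gene Gm32017 overlaps Lipc on the opposite strand, with a mean of 9.13 in the 12 libraries against 3498 for Lipc.

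The Lipc call in wild-type livers rested on the libraries of both groups. It was lost without WT_tumor replicate 1 (adjusted p = 0.0872) or 3 (0.124) and without WT_no_tumor replicate 1 (0.132), 2 (0.075) or 3 (0.0749), while the log2 fold change stayed between -1.46 and -1.07 with any single library left out. The call averaged over genotypes was lost without KO_no_tumor replicate 1 (adjusted p = 0.0544) or WT_no_tumor replicate 1 (0.0537). Sums of several marker lists differed between the same groups, those of hepatocytes given above among them. The 6 stellate and fibroblast markers summed to 17776 to 21851 in WT_tumor livers against 10241 to 12895 in WT_no_tumor livers, and 2 of the 6, Dcn and Col3a1, passed the test (log2 fold changes 1.16 and 1.5). The 5 erythroid markers summed to 5655 to 9046 in WT_tumor livers against 1920 to 3653 in WT_no_tumor livers, with Alas2 called. The 6 neutrophil markers summed to 208 to 409 in WT_tumor livers against 10.2 to 66.5 in WT_no_tumor livers, with none called. Squamous or mammary epithelium markers (6) summed to 4345 to 5556 in WT_tumor livers against 2249 to 2939 in WT_no_tumor livers, with none called. Krt8 and Krt18 made up most of these sums in tumour-free livers too, so the sums cannot stand for such epithelium alone. Krt18 had 3584, 3794 and 2744 in WT_tumor livers against 1417, 1314 and 1957 in WT_no_tumor livers. Krt14 had 40.3, 41.0 and 55.3 in WT_tumor livers against 45.2, 46.3 and 36.9 in WT_no_tumor livers. The median log2 fold change of the 6 was 0.11, with 4 positive and 2 negative. Endothelium markers (8) summed to 10229 to 12386 in WT_tumor livers against 6891 to 10226 in WT_no_tumor livers, with none called. The 9 macrophage markers had overlapping sums, but all 9 had positive log2 fold changes in WT_tumor against WT_no_tumor livers (median 0.98), with none called. All 9 were also positive in KO_no_tumor against WT_no_tumor livers (median 0.30), again with none called. None of these markers was at 0 in all 3 WT_tumor livers, and Retnlg of the neutrophil list was at 0 in at least 6 of the 12 libraries. Their part in the lower Lipc and Vldlr was not tested, and in whole tissue fewer cells of a type and less RNA per cell cannot be told apart.

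Vldlr encodes the very low density lipoprotein receptor, which binds triglyceride-rich lipoproteins and is usually low in liver. Vldlr lies on chromosome 19 (27193884 to 27231631, plus strand, mm39). Its values were 759, 1239 and 846 in KO_tumor livers, 168, 442 and 589 in WT_tumor livers, 1319, 1016 and 980 in KO_no_tumor livers and 1606, 1593 and 861 in WT_no_tumor livers. All 3 WT_tumor values lay below the lowest value of every other group, and the other 3 groups overlapped. Vldlr fell in WT_tumor against WT_no_tumor livers by 1.88 ± 0.39 (95% interval -2.73 to -1.04; adjusted p = 0.0448), to 29.5% of the WT_no_tumor mean. In KO_tumor against KO_no_tumor livers the log2 fold change was -0.24 ± 0.39 (adjusted p = 0.794). The difference between these effects was 1.64 ± 0.56 (95% interval 0.45 to 2.84; unadjusted p = 0.0106, adjusted p = 0.859), which did not pass. In KO_tumor against WT_tumor livers Vldlr stood 1.39 ± 0.39 higher (adjusted p = 0.186). The call in wild-type livers lay near the threshold: it was lost with values rescaled to the same total (adjusted p = 0.0624), with the 6 libraries alone (0.0817) and with any of 9 libraries left out. These were WT_no_tumor replicates 1 (0.219) and 2 (0.211), WT_tumor replicates 1 (0.16), 2 (0.06) and 3 (0.0596), KO_no_tumor replicates 1 (0.0661), 2 (0.0657) and 3 (0.0651) and KO_tumor replicate 3 (0.0618). The log2 fold change was -1.35 without WT_tumor replicate 1 and between -2.25 and -1.73 without any other library.

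Among 7 other lipoprotein receptors, 6 were tested and none passed in any of the 7 comparisons. The gene of this list with the smallest p was Lrp2, the large endocytic receptor known from kidney, in tumour-bearing against tumour-free livers averaged over genotypes. It had 160, 35.1 and 24.6 in KO_tumor, 17.3, 10.1 and 18.8 in WT_tumor, 7.56, 50.4 and 2.63 in KO_no_tumor and 2.26, 7.36 and 10.4 in WT_no_tumor livers. Its log2 fold change was 1.71 ± 0.78 (adjusted p = 0.322), and tumour-bearing and tumour-free livers overlapped in both genotypes. All 6 receptors tested had positive fold changes in WT_tumor against WT_no_tumor livers, with a median of 0.48, where the median of all genes tested was 0.0048.

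Lipc, Vldlr and Fabp1 were the 3 members whose values were lower in every WT_tumor library than in any WT_no_tumor library, against 8.05% of genes tested in that direction and 17.5% in either. Their promoters are shown for that reason, from RefSeq on GRCm38.p6, 5′ to 3′ on the strand of the gene and without bases that the GENCODE M21 annotation places in exons. Lipc and Vldlr each have a further start site, whose windows (chr9:70934809-70935058 and chr19:27216770-27217019) are not shown. The most upstream start is printed, and which start liver uses was not tested.
Fabp1 (chr6:71199629-71199826, plus strand, bases -250 to -53): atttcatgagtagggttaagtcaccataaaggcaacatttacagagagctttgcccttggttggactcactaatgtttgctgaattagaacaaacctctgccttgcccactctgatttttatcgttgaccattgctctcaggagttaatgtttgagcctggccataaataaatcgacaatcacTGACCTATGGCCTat
Lipc (chr9:70952227-70952471, minus strand, bases -250 to -6): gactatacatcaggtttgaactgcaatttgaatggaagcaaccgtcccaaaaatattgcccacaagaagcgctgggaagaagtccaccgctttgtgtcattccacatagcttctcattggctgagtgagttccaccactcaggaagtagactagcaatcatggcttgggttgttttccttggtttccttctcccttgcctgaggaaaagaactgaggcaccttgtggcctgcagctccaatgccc
Vldlr (chr19:27216234-27216483, plus strand, bases -250 to -1): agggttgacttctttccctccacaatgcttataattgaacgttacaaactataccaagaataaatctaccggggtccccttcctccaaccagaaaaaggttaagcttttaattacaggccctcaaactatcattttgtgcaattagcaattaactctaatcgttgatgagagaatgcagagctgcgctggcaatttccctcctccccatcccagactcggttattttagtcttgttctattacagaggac
Capitals mark the only motif match inside these windows. It lies on the minus strand of Fabp1 at bases -67 to -55 from the start and holds the half-site AGGNCA 2 times with 1 free base between them (DR1), a repeat of the kind that dimers of Ppara and Rxra bind. The 250 bases before the start were searched on both strands in 32851 promoters, of which 111 (0.338%) held this DR1. A stricter form with AGGTCA as the half-site, whose matches are all DR1 matches too, was found in 11 promoters (0.0335%). An HNF1 motif (GTTAAT, 1 free base and ATTNAC) was found in 18 (0.0548%) and TATAAA in 4063 (12.4%). Of the 7 members with a promoter in the table, which have 10 start sites in all, Fabp1 alone held the DR1, and it also held TATAAA at bases -30 to -25, beyond the stretch shown. None of the 4 motifs was found in the Lipc and Vldlr windows, which says only that these letters are not there.

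Lpl encodes lipoprotein lipase, which releases fatty acids from triglyceride-rich lipoproteins at the endothelium and is low in adult hepatocytes but present in macrophages. Lpl lies on chromosome 8 (69333143 to 69360100, mm39). Its values were 1415, 851 and 915 in KO_tumor livers, 1213, 3849 and 2794 in WT_tumor livers, 914, 1004 and 1365 in KO_no_tumor livers and 735, 1122 and 1123 in WT_no_tumor livers. WT_tumor replicates 2 and 3 stood above the other 10 libraries, and WT_tumor replicate 1 lay within the range of the KO_tumor and KO_no_tumor livers. Lpl is the one member whose 3 WT_tumor values all lay above the 3 WT_no_tumor values, against 9.46% of genes tested, and its log2 fold change of 1.27 ± 0.36 did not pass (adjusted p = 0.179). Without WT_tumor replicate 1 it was 1.75 (adjusted p = 0.0437). In KO_tumor against WT_tumor livers it was -1.19 ± 0.36 (adjusted p = 0.204), in KO_tumor against KO_no_tumor livers -0.06 ± 0.36 (adjusted p = 0.953), and the difference between the tumour's effects was -1.33 ± 0.51 (adjusted p = 0.859). The 9 macrophage markers summed to 6048 to 9254 in KO_tumor, 6400 to 9221 in WT_tumor, 4363 to 8238 in KO_no_tumor and 3780 to 8094 in WT_no_tumor livers, ranges that overlap throughout. Their log2 fold changes were positive for 9 of 9 in WT_tumor against WT_no_tumor livers (median 0.98, against 0.0048 over all genes tested). They were also positive for 9 of 9 in KO_no_tumor against WT_no_tumor livers (median 0.30, against -0.0087 over all genes tested), where Lpl had 0.14. They were negative for 7 of 9 in KO_tumor against WT_tumor livers (median -0.18, against -0.12 over all genes tested). In KO_tumor against KO_no_tumor livers 6 of 9 were positive (median 0.11). In KO against WT averaged over tumour states 6 of 9 were positive (median 0.033), where Lpl had -0.52. No marker passed in any of these comparisons. One of the 9, Trem2, was at 0 in all 3 KO_tumor livers and had 11.5, 35.3 and 7.75 in WT_tumor livers. Trem2 was near the floor, with a mean of 8.57 over the 12 libraries. The more abundant Clec4f had 2964, 1981 and 2730 in KO_tumor livers against 2234, 2795 and 1461 in WT_tumor livers. Cd68 had 325, 150 and 276 in KO_tumor livers against 105, 305 and 115 in WT_tumor livers. The part of macrophages in Lpl was not tested.

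Lipases act with carriers, anchors and inhibitors, and of 11 such genes, all tested, none passed in any comparison. In KO_tumor against WT_tumor livers 9 of the 11 had positive log2 fold changes with a median of 1.01, where 42.8% of all genes tested were positive and their median was -0.12. The smallest p belonged to Angptl8, an insulin-induced inhibitor of Lpl. It had 1275, 907 and 528 in KO_tumor livers against 133, 190 and 191 in WT_tumor livers, and 403, 336 and 132 in KO_no_tumor livers against 440, 478 and 248 in WT_no_tumor livers. The 3 KO_tumor libraries held the highest values of the 12. The log2 fold change with a tumour was 2.32 ± 0.44 (95% interval 1.38 to 3.26; adjusted p = 0.108), and it passed without WT_tumor replicate 2 (2.40, adjusted p = 0.04).

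Cd36 is the scavenger receptor that takes up long-chain fatty acids and oxidized lipoproteins, and it rises in fatty liver. Cd36 lies on chromosome 5 (17986688 to 18093799, minus strand, mm39). Its values were 6273, 15890 and 13553 in KO_tumor livers, 10175, 9394 and 15380 in WT_tumor livers, 13199, 19051 and 11857 in KO_no_tumor livers and 17410, 11925 and 11718 in WT_no_tumor livers. The lowest value was that of KO_tumor replicate 1, the shallowest library, and every pair of groups overlapped. Between KO_tumor and WT_tumor livers the log2 fold change was -0.04 ± 0.33 (95% interval -0.75 to 0.66), and 0.37 without KO_tumor replicate 1. The interval of KO_no_tumor against WT_no_tumor was -0.61 to 0.80. Adjusted p lay between 0.549 and 1 in all 7 comparisons. With 3 mice a group, differences inside these intervals were not excluded. The intervals do not give the smallest change that the test would call.

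Slc27a2 encodes a transport protein that also activates very long-chain fatty acids and is among the main forms of liver. Slc27a2 lies on chromosome 2 (126394327 to 126430163, mm39). Its values were 17199, 15130 and 19361 in KO_tumor livers, 15702, 20828 and 11950 in WT_tumor livers, 22200, 21882 and 21705 in KO_no_tumor livers and 19231, 36866 and 19830 in WT_no_tumor livers. The KO_no_tumor livers differed by little, with an SD of 251 on a mean of 21929, and WT_no_tumor replicate 2 was the highest of all 12. Slc27a2 and Lipc are the 2 members whose KO_tumor values all lay below the KO_no_tumor values, against 9.48% of genes tested in that direction and 16.8% in either. The fold change in that comparison was -0.36 ± 0.27 (adjusted p = 0.553). No gene of 17380 (0%) passed there by limma, while 2209 had an unadjusted p under 0.05 and 1 passed when the 6 libraries were fitted alone. In WT_tumor against WT_no_tumor livers the log2 fold change was -0.62 ± 0.27 (adjusted p = 0.539) and in KO_tumor against WT_tumor livers 0.12 ± 0.27 (adjusted p = 0.845).

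Of 5 other transport proteins of the Slc27a family 4 were tested and none passed. The smallest p was that of Slc27a5, the bile acid CoA ligase and very long-chain fatty acid transporter of liver, in KO against WT averaged over tumour states. It had 14331, 9220 and 12316 in KO_tumor livers against 8983, 9345 and 6707 in WT_tumor livers, and 9836, 12014 and 10687 in KO_no_tumor livers against 7644, 6603 and 8522 in WT_no_tumor livers. The tumour-free groups did not overlap, and the averaged log2 fold change was 0.51 ± 0.15 (adjusted p = 0.369). In that averaged comparison 0 of the 10 members passed, against 0.0115% of genes, and 3 had an unadjusted p under 0.05, as did 1787 of all 17380 genes: Fabp1 (0.98 ± 0.24), Dbi (0.70 ± 0.21) and Lipc (0.59 ± 0.17).

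Once inside, fatty acids are joined to coenzyme A by long-chain acyl-CoA synthetases, of which 4 of 5 listed genes were tested. Acsl1, the main form of liver, had 15241, 16982 and 13628 in KO_tumor livers, 9919, 11174 and 10471 in WT_tumor livers, 21943, 16287 and 17936 in KO_no_tumor livers and 24957, 25512 and 18556 in WT_no_tumor livers. The WT_tumor livers were the lowest group and overlapped no other. Acsl1 fell in WT_tumor against WT_no_tumor livers by 1.12 ± 0.2 (adjusted p = 0.0231) and by 0.70 ± 0.14 averaged over genotypes (adjusted p = 0.0339), and it was the one gene of the 8 pathway lists that passed in any comparison. The call in wild-type livers was lost with the 6 libraries alone (adjusted p = 0.0521) and without WT_tumor replicate 1 (0.121) or 3 (0.0994) or WT_no_tumor replicate 1 (0.122) or 2 (0.0975). The averaged call was lost with quantile normalization (0.0748), with the same total (0.0665), without both libraries that stood apart (0.0796) and without any of 7 libraries, which were KO_tumor replicate 3 (0.101), WT_tumor replicates 1 (0.099) and 3 (0.0699), KO_no_tumor replicates 1 (0.106) and 3 (0.0707) and WT_no_tumor replicates 1 (0.094) and 2 (0.0833). Of 6 other membrane proteins tied to fatty acid entry 4 were tested and none passed. The smallest p was that of Cav2, a protein of caveolae, with 338, 432 and 499 in KO_tumor livers against 1090, 603 and 1278 in WT_tumor livers and a log2 fold change of -1.18 ± 0.30 (adjusted p = 0.151).

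**Figure D2:**
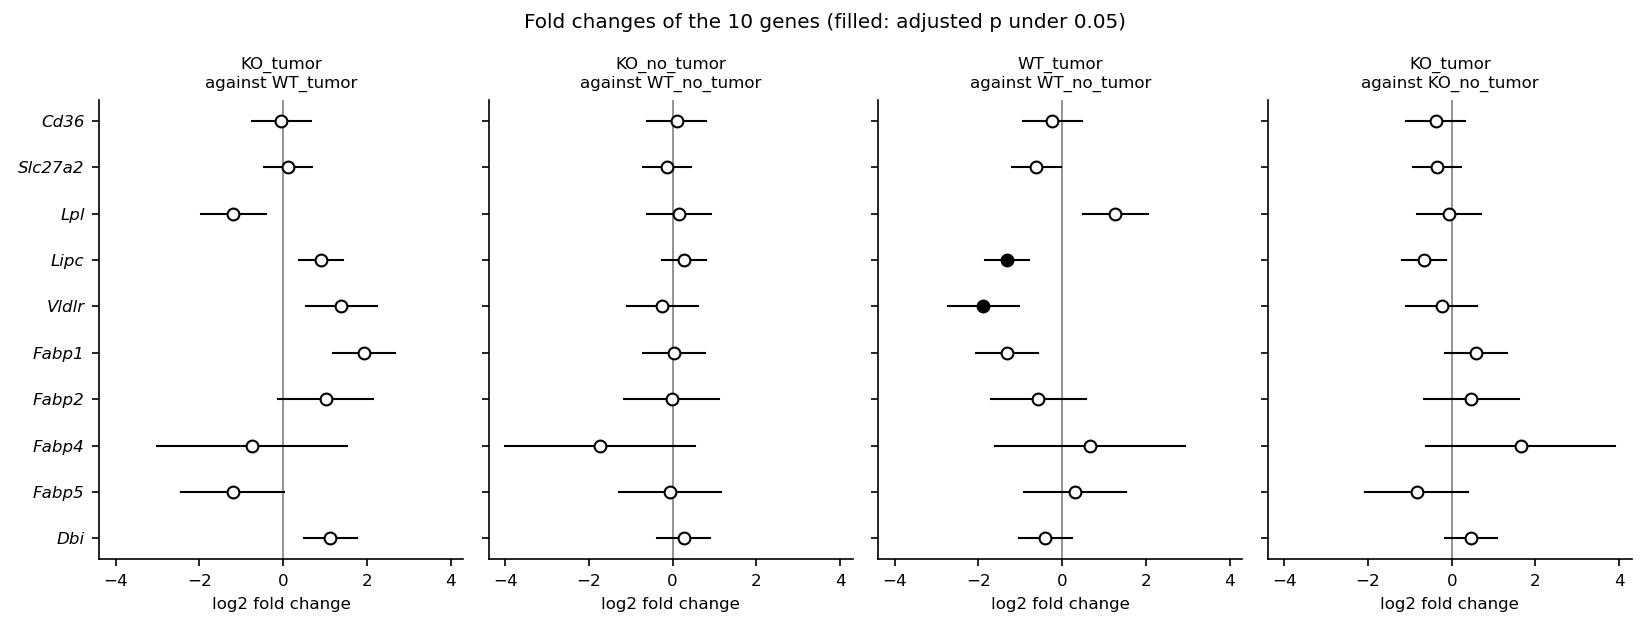
Log2 fold change (x axis, on the log2(value + 1) scale) of the 10 genes in the 4 comparisons between 2 groups; points are limma estimates, lines are 95% intervals, and filled points have an adjusted p under 0.05. Lipc and Vldlr are filled in WT_tumor against WT_no_tumor, and in KO_no_tumor against WT_no_tumor every interval includes 0.

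Fabp1 encodes the liver fatty acid binding protein, among the most abundant cytosolic proteins of hepatocytes. Fabp1 lies on chromosome 6 (71176811 to 71182007, mm39). Its values were 12186, 11421 and 8072 in KO_tumor livers, 1811, 5441 and 2050 in WT_tumor livers, 5189, 7170 and 8864 in KO_no_tumor livers and 7856, 6026 and 6576 in WT_no_tumor livers. The WT_tumor livers overlapped neither KO_tumor nor WT_no_tumor livers, with WT_tumor replicate 2 the closest to both, and the tumour-free groups overlapped. The KO_tumor mean was 341% of the WT_tumor mean and the WT_tumor mean 45.5% of the WT_no_tumor mean. The log2 fold change of KO_tumor against WT_tumor was 1.93 ± 0.35 (95% interval 1.19 to 2.67; unadjusted p = 6.27e-05), which did not pass over all genes (adjusted p = 0.0727). It did pass with a pseudocount of 10 (adjusted p = 0.0404), without the filter (0.0496) and without WT_tumor replicate 2 (log2 fold change 2.43, adjusted p = 0.00143), where 210 genes passed against 4 with all libraries. In WT_tumor against WT_no_tumor livers it was -1.31 ± 0.35 (adjusted p = 0.139), and -1.81 without WT_tumor replicate 2 (adjusted p = 0.00526). Without a tumour the fold change between KO and WT was 0.03 ± 0.35 (95% interval -0.71 to 0.77). The difference between the tumour's effects in KO and WT was 1.90 ± 0.49 (unadjusted p = 0.00156, adjusted p = 0.859), and no gene passed that test (0% of 17380, with 816 at an unadjusted p under 0.05). In KO against WT averaged over tumour states, Fabp1 passed without WT_tumor replicate 2 (1.23, adjusted p = 0.0198). Marker sums that did not overlap between the tumour-bearing groups were those of neutrophils, at 17.3 to 123.3 in KO_tumor and 208 to 409 in WT_tumor livers, and of stellate cells, at 13655 to 17140 in KO_tumor and 17776 to 21851 in WT_tumor livers, besides those of adipocytes and enterocytes given with Fabp4 and Fabp2. Of the 6 stellate markers 2 had positive and 4 negative log2 fold changes (median -0.029, against -0.12 over all genes tested). Among them Col3a1 had 1881, 968 and 1262 in KO_tumor livers against 4350, 3154 and 3878 in WT_tumor livers. Dcn had 6966, 5856 and 7228 in KO_tumor livers against 6358, 7442 and 6882 in WT_tumor livers. No marker of these 4 lists passed between the tumour-bearing groups. The part of these cells in Fabp1, Lipc, Vldlr and Dbi was not tested.

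Fabp2, the intestinal fatty acid binding protein, had 1021, 312 and 343 in KO_tumor livers, 157, 466 and 179 in WT_tumor livers, 393, 256 and 410 in KO_no_tumor livers and 367, 606 and 196 in WT_no_tumor livers. Fabp2 lies on chromosome 3 (122688721 to 122693155, mm39). KO_tumor replicate 1 alone stood above 606, and every pair of groups overlapped. Fabp2 in KO_tumor against WT_tumor livers had a log2 fold change of 1.02 ± 0.53 (adjusted p = 0.384), and 0.47 without KO_tumor replicate 1. Of 6 enterocyte markers 2 were in the table. Alpi had 37, 16.9 and 13.1 in KO_tumor livers and was at 0 in the other 9 libraries, and Lct was at 0 in all tumour-bearing livers. The part of these cells in Fabp2 was not tested.

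Fabp4 and Fabp5 lie on chromosome 3 (10269148 to 10273636 and 10077608 to 10081667, mm39), close to each other. Fabp4 had 113, 19.5 and 85.4 in KO_tumor livers, 300, 47.5 and 64.2 in WT_tumor livers, 26.5, 65.4 and 2.63 in KO_no_tumor livers and 77.9, 34.7 and 85.2 in WT_no_tumor livers. It was the lowest and most variable member, and 1 read was worth 1.315 in KO_no_tumor replicate 3, so that its value there was 2 reads. The lowest adjusted p of Fabp4 over the 7 comparisons was 0.488, and its interval for KO_tumor against WT_tumor ran from -3.01 to 1.52. The 6 adipocyte markers in the table summed to 185 to 769 in KO_tumor, 19.4 to 44 in WT_tumor, 28.9 to 231 in KO_no_tumor and 40.5 to 120 in WT_no_tumor livers, with Adipoq, Retn, Cidea and Cfd at 0 in at least 6 of the 12 libraries. Most of the KO_tumor sums was Slc2a4 alone, with 550, 163 and 166 in KO_tumor livers against 34.6, 10.1 and 19.9 in WT_tumor livers. Adipoq had 37, 11.7 and 2.31 in KO_tumor livers and was at 0 in WT_tumor livers. The part of adipocytes in Fabp4 was not tested.

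Fabp5, the epidermal form, had 5560, 3736 and 2556 in KO_tumor livers, 13187, 12032 and 4106 in WT_tumor livers, 7799, 4918 and 7835 in KO_no_tumor livers and 14021, 2338 and 10506 in WT_no_tumor livers. Both wild-type groups spread widely, and every pair of groups overlapped. Fabp5 in KO_tumor against WT_tumor livers had a log2 fold change of -1.21 ± 0.57 (95% interval -2.43 to 0.02; adjusted p = 0.353), and without a tumour -0.07 ± 0.57. The 6 markers of squamous or mammary epithelium summed to 2671 to 5901 in KO_tumor, 4345 to 5556 in WT_tumor, 2415 to 2832 in KO_no_tumor and 2249 to 2939 in WT_no_tumor livers. Krt8 and Krt18 made up most of these sums, also in tumour-free livers, so the sums cannot stand for such epithelium alone. The part of such cells in Fabp5 was not tested. Fabp5 shares long near-identical stretches with 5 other annotated genes, of which 2 were in the table with means of at most 1.7, so reads of these copies may have been counted with it. Of the 6 other fatty acid binding proteins listed, Fabp7 was tested and averaged 119 ± 62.4 in KO_tumor, 75.2 ± 8.44 in WT_tumor, 47.7 ± 25.9 in KO_no_tumor and 51 ± 20.9 in WT_no_tumor livers. Its fold change with a tumour averaged over genotypes was 0.97 ± 0.45 (adjusted p = 0.323).

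Dbi encodes the acyl-CoA binding protein, which buffers acyl-CoA in the cytosol. Dbi lies on chromosome 1 (120041010 to 120048808, minus strand, mm39). Its values were 3482, 2797 and 2452 in KO_tumor livers, 1154, 2064 and 952 in WT_tumor livers, 1754, 1795 and 2910 in KO_no_tumor livers and 2163, 1334 and 1821 in WT_no_tumor livers. The KO_tumor values all lay above the WT_tumor values, and the KO_tumor mean was 209% of the WT_tumor mean. The log2 fold change was 1.13 ± 0.29 (95% interval 0.50 to 1.76; adjusted p = 0.157), and 1.46 without WT_tumor replicate 2 (adjusted p = 0.0265). In WT_tumor against WT_no_tumor livers it was -0.40 ± 0.29 (adjusted p = 0.812). Dbi shares a stretch of 261 bases at 93.87% identity with the annotated gene Gm12222, which was not in the table. Reads of this copy may have been counted with Dbi. Of 6 other acyl-CoA binding proteins 5 were tested and none passed. The smallest p was that of Acbd5, a peroxisomal acyl-CoA binding protein, with 4903, 7127 and 6407 in WT_tumor livers against 8943, 11809 and 6119 in WT_no_tumor livers (-0.51 ± 0.23, adjusted p = 0.561).

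**Figure D3:**
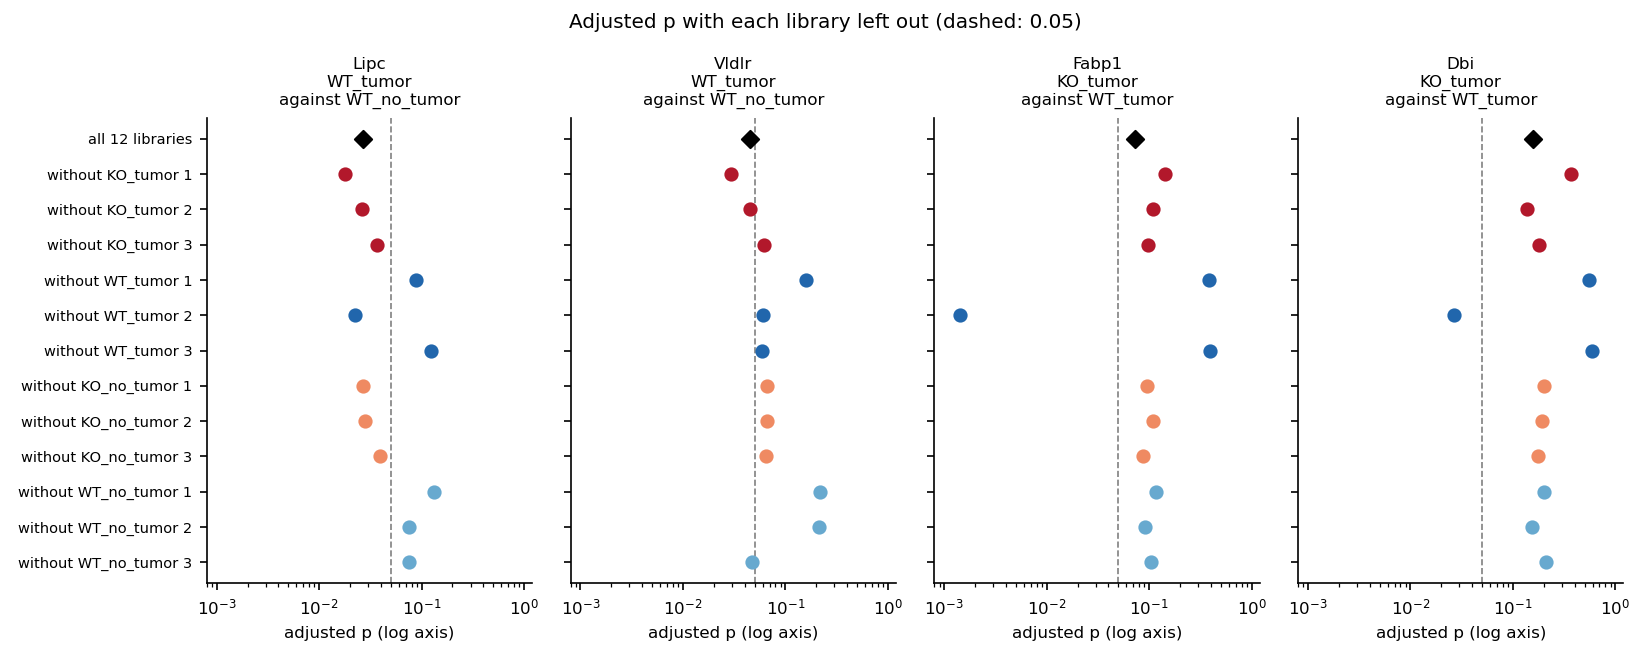
Adjusted p (log axis) of Lipc and Vldlr in WT_tumor against WT_no_tumor and of Fabp1 and Dbi in KO_tumor against WT_tumor, with all 12 libraries (black diamond) and with each library left out (points, coloured by group); the dashed line is 0.05. Leaving out WT_tumor replicate 2 takes Fabp1 to 0.00143 and Dbi to 0.0265, and leaving out a WT_no_tumor replicate takes Lipc to 0.0749 or above.

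Set beside each other, the 10 genes did not move as a block. In WT_tumor against WT_no_tumor livers 7 had negative and 3 positive log2 fold changes with a median of -0.49, where the median of all genes tested was 0.0048. In KO_tumor against WT_tumor livers 6 were positive with a median of 0.52, where 42.8% of all genes were positive. In KO_no_tumor against WT_no_tumor livers 5 were positive, no member passed, against 0.00575% of genes, and none had an unadjusted p under 0.05, as 336 of all genes did. The comparisons of KO_tumor with WT_tumor and of WT_tumor with WT_no_tumor share the WT_tumor libraries, so that a low or high WT_tumor value enters both with opposite sign. For Fabp1 the group means were 10560 in KO_tumor, 3101 in WT_tumor, 7075 in KO_no_tumor and 6819 in WT_no_tumor livers; for Lpl they were 1060 in KO_tumor, 2619 in WT_tumor, 1094 in KO_no_tumor and 993 in WT_no_tumor livers. Among 10 transcription factors and cofactors known to regulate such genes none passed, and the smallest p was that of Nr1i2 (786 ± 126 in KO_tumor, 704 ± 145 in WT_tumor, 1227 ± 274 in KO_no_tumor and 1071 ± 194 in WT_no_tumor livers). Its fold change with a tumour averaged over genotypes was -0.62 ± 0.17 (adjusted p = 0.0999).

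Levels can be compared between genes only per length. Divided by the union of annotated exons (GENCODE M21), the mean over 12 libraries was 12457 per kb for Fabp1, 5369 for Slc27a2, 3617 for Cd36, 2070 for Fabp5, 1627 for Lipc, 1446 for Dbi, 406 for Fabp2, 138 for Lpl, 94.5 for Vldlr and 17.1 for Fabp4. By this length Fabp1 led in KO_tumor, KO_no_tumor and WT_no_tumor livers by more than its spread (19096 ± 3956, 12793 ± 3326 and 12331 ± 1699 per kb). In WT_tumor livers its 5607 ± 3671 per kb overlapped Slc27a2 at 4305 ± 1187. Over all 12 libraries the range of each gene overlapped that of its neighbour in this order. The exon length counts every annotated transcript, whether or not liver makes it. It was 4.489 kb for Fabp4, which is the whole span of the gene, 3.567 kb for Fabp5 and 1.422 kb for Dbi. The longest were those of Lpl (10.478 kb) and Vldlr (10.068 kb), whose levels per kb may be lowered too. A stretch of 409 bases was 41.44% of the longest coding transcript of Fabp5, and 261 bases 45.87% of that of Dbi. These transcripts are thus far shorter than the lengths used. Fabp5, Dbi and Fabp4 would stand higher per kb of such a transcript, so the order given here is not settled.

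**Figure D4:**
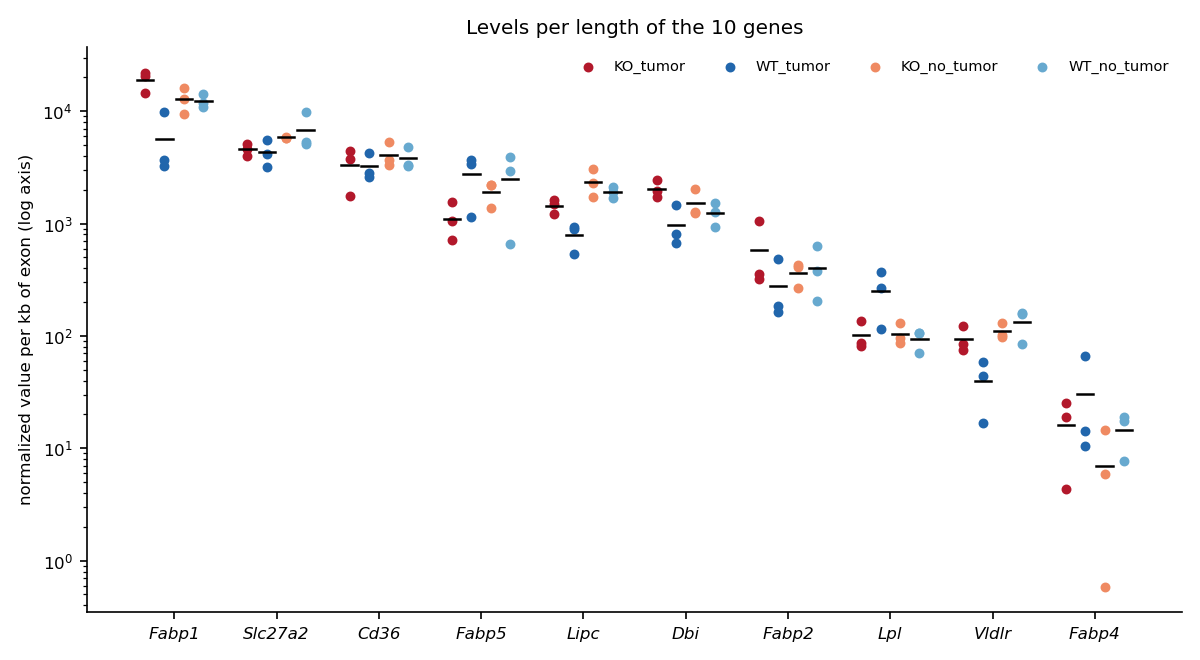
Normalized value per kb of annotated exon (log axis) of the 10 genes in each library, ordered by the mean over 12 libraries; points are libraries, coloured by group, and the black line is the mean of the group (n = 3). The genes span from 17.1 per kb for Fabp4 to 12457 per kb for Fabp1 in the mean of all libraries. The length is the union of all annotated exons, which lowers Fabp4, Fabp5 and Dbi against shorter transcripts and may lower Lpl and Vldlr too. The order is therefore not settled.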

How the data were processed

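RNA of 12 whole livers, in 4 groups of 3 mice named by the labels, was depleted of ribosomal RNA and sequenced, per the labels' protocols. The submitters' processing notes name STAR 2.7.8a, Partek, DESeq2 and mm39. The deposited values are size-factor normalized read signal per gene, not whole counts, since 78.05% to 84.89% of values up to 20 reads came out whole within 0.01 of a read, so no count model was used. The sources used here name no counting program, annotation release or use of strand. All 12 libraries entered 1 limma fit (limma 3.58.1 in R 4.3.3, with trend) of log2(value + 1) on genes with at least 10 in at least 3 libraries. Benjamini-Hochberg adjustment ran over 17380 genes within each of 7 comparisons, with a threshold of 0.05. The fit was tested on simulated data. Each p printed is from this fit unless a changed setting is named.

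The members and lists were chosen with earlier results of these data known. Named are all 10 members, and of each pathway list the genes that passed or, failing any, the one with the smallest p. Of 130 listed genes 118 were found. Promoters are from RefSeq (GRCm38.p6) and exon lengths from GENCODE M21, both matched by gene. Close copies were sought with BLAST+ 2.17.0+ (at least 90% identity over at least 100 bases and 30% of a transcript). Alternatives were a pseudocount of 10, no filter, rescaling to the same total, quantile normalization of log2 values, a replicate block, each library left out, both libraries that stood apart left out, and 6 libraries fitted alone. Replicate numbers were not treated as pairs.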

Additional observations from a re-analysis of the deposited data

How the results depend on the processing

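Alternatives changed counts of calls more than directions. Between KO_tumor and WT_tumor livers 4 genes passed, and 17 passed with a pseudocount of 10, 16 without the filter, 11 with quantile normalization, 13 with the replicate block, 9 without both libraries that stood apart and 0 with 6 libraries alone. Of the members 0 passed, and 1 (Fabp1) with a pseudocount of 10 and 1 without the filter. In WT_tumor against WT_no_tumor livers 118 genes passed and 212 without both libraries. The 2 members called there became 1 (Lipc) with the same total, with the replicate block and with 6 libraries alone. In KO_tumor against KO_no_tumor livers 1 gene passed with 6 libraries alone. With the same total the called genes split 77 higher to 25 lower in WT_tumor against WT_no_tumor livers, against 75 to 43 as reported. Averaged over genotypes they split 133 to 45 with the same total and 161 to 72 with quantile normalization, against 107 to 78.

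Same-numbered libraries did not deviate together (correlations -0.09 to 0.10 over 18 pairs, none over 0.1), so the numbers were taken as names only. The replicate block left 89 genes called in WT_tumor against WT_no_tumor livers, and under it Vldlr in that comparison had an adjusted p of 0.0668 and Angptl8 in KO_tumor against WT_tumor livers one of 0.0476.

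With single libraries left out, genes called ran from 2 to 210 in KO_tumor against WT_tumor, 0 to 1 in KO_no_tumor against WT_no_tumor, 2 to 15 in KO against WT averaged, 12 to 205 in WT_tumor against WT_no_tumor, 0 to 1 in KO_tumor against KO_no_tumor, 47 to 361 in tumour against none averaged and 0 to 1 in the interaction. Members called ran from 0 to 2 in KO_tumor against WT_tumor and in WT_tumor against WT_no_tumor, and from 0 to 1 in both averaged comparisons.

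Directions reversed only for fold changes that had not passed. Cd36 in KO_tumor against WT_tumor became 0.0227 with quantile normalization and 0.37 without both libraries. In KO_no_tumor against WT_no_tumor Fabp1 became -0.0218 with the same total, -0.00499 with quantile normalization and -0.15 without both, and Lpl -0.0256 without both. In KO against WT averaged Cd36 became -0.00936 with the same total. In KO_tumor against KO_no_tumor Fabp4 became -0.021 without both and Lpl 0.0217 with the same total. Averaged over genotypes Fabp2 became 0.0177 with the same total. In the interaction, without both, Cd36 became 0.13 and Fabp4 -0.68. With single libraries left out the fold changes that reversed ran as follows. For KO_tumor against WT_tumor they were Cd36 -0.30 to 0.37, Fabp4 -1.25 to 0.0628 and Slc27a2 -0.0771 to 0.32. In KO_no_tumor against WT_no_tumor they were Cd36 -0.10 to 0.28, Fabp1 -0.15 to 0.23, Fabp2 -0.45 to 0.36, Fabp5 -0.86 to 0.43, Lpl -0.0587 to 0.26 and Slc27a2 -0.30 to 0.17. In KO against WT averaged they were Cd36 -0.10 to 0.23 and Slc27a2 -0.11 to 0.14. In WT_tumor against WT_no_tumor they were Fabp4 -0.15 to 1.17 and Fabp5 -0.49 to 0.85. In KO_tumor against KO_no_tumor they were Cd36 -0.64 to 0.0281, Fabp2 -0.0782 to 0.77 and Lpl -0.29 to 0.11. Averaged over genotypes they were Fabp2 -0.33 to 0.14, Fabp5 -0.66 to 0.00606 and Dbi -0.13 to 0.15. In the interaction they were Cd36 -0.40 to 0.27, Fabp4 -0.20 to 1.90 and Slc27a2 -0.0451 to 0.46. The cause of these changes was not tested. Fabp4 rests on few reads.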

Other observations

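Across the 12 libraries, which fall into 4 groups and differ in depth, the genes whose log2 values ran most like those of each member (Pearson r, genes with a mean of at least 50) are given as a description only. For Fabp1 they were Gsk3a (r = 0.952) and Hibadh (0.952), and Hibadh encodes an enzyme of valine breakdown. For Lipc the likest was Mgll (0.934), which encodes monoglyceride lipase. For Dbi they were Pcyt2 (0.946), an enzyme of phosphatidylethanolamine synthesis, and Gstm6 (0.946). For Slc27a2 they were Glyat (0.944), which joins glycine to acyl groups, and Abca8a (0.897). For Vldlr they were Sh3d19 (0.925) and Peli2 (0.893), and for Lpl Rcn2 (0.862) and Ccr2 (0.85), the chemokine receptor of monocytes. For Fabp2 they were Upb1 (0.96) and Hal (0.935), enzymes of pyrimidine and histidine breakdown. For Fabp4 they were Gpc1 (0.919) and Steap3 (0.906), for Fabp5 Myo5b (0.87) and Uck2 (0.85), and for Cd36 Itprid2 (0.898) and Mto1 (0.87). Between members the highest correlation was that of Fabp1 with Dbi (0.902).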
